A study of Nicotiana tabacum with 10 samples.

Results

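Variation among auxin-supplied control cultures of the tobacco cell line BY-2 was described from all 7 control libraries of a series of 10 RNA-seq samples. The control libraries were compared as 2 sets, replicates 3, 6 and 7 against replicates 1, 2, 4 and 5. The sets were chosen by the libraries' scores on the second principal component of all 10, so the levels compared below are the ones that chose them. Differences between the sets are therefore given as descriptions of spread, with no test. On that component, which held 7.79% of the variance and whose sign is arbitrary, replicates 3, 6 and 7 scored 43.0, 64.1 and 62.0. Replicates 1, 2, 4 and 5 scored -19.5, -37.4, -21.2 and -72.4.

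BY-2 (Nicotiana tabacum cv. Bright Yellow 2) is a fast-growing suspension line that is widely used to study division and elongation of plant cells. It depends on auxin, a hormone that sustains cell division in culture. The line is usually supplied with 2,4-dichlorophenoxyacetic acid (2,4-D), a synthetic auxin. A suspension culture passes through lag, exponential and stationary phases after each transfer to fresh medium, and its transcript profile is known to change along that course.

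The 3 auxin-free samples were BY-2 cells inoculated into Murashige and Skoog medium that lacked 2,4-D. The 7 control samples were BY-2 cells in the same medium with 2,4-D at 0.2 mg/l. All 10 were collected 48 h after inoculation, and the labels place all of them in exponential growth. The series' design text calls the controls biological replicates, but no label names a date, a flask or a batch for any library, and separate cultures are not stated for the auxin-free samples. P-values thus measure the spread between these samples, which may be technical in part. In bulk RNA, fewer cells in a given state and less RNA per cell cannot be told apart.

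The unit of measurement was the gene model, a predicted transcript named by a Nitab4.5 identifier. None of the 69500 models could be paired with a gene name (0 matched the reference table), so no function is given for any model, and markers of BY-2 cells were not checked. Levels are given as CPM, which scales read counts by TMM-adjusted library size, and differences on the scale of log2(CPM + 0.5). The 37034 models abundant enough to test were used throughout. Replicates 3, 6 and 7 held 15091405, 11280031 and 15390460 estimated reads, and replicates 1, 2, 4 and 5 held 23705016, 22410550, 12040873 and 16308187. The depths of the 2 sets overlapped.

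The 7 control profiles lay along a gradient with replicate 5 at one end and replicates 6 and 7 at the other. On the first principal component of the 7 controls alone, which held 58.6% of their variance, replicates 3, 6 and 7 scored 40.0, 62.5 and 66.7. Replicates 1, 2, 4 and 5 scored -24.0, -42.2, -25.6 and -77.4. The difference between the set means took up 52.4% of the variation among the 7 controls over all tested models. The widest empty interval on this axis lay between replicates 3 and 1.

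**Figure D1:**
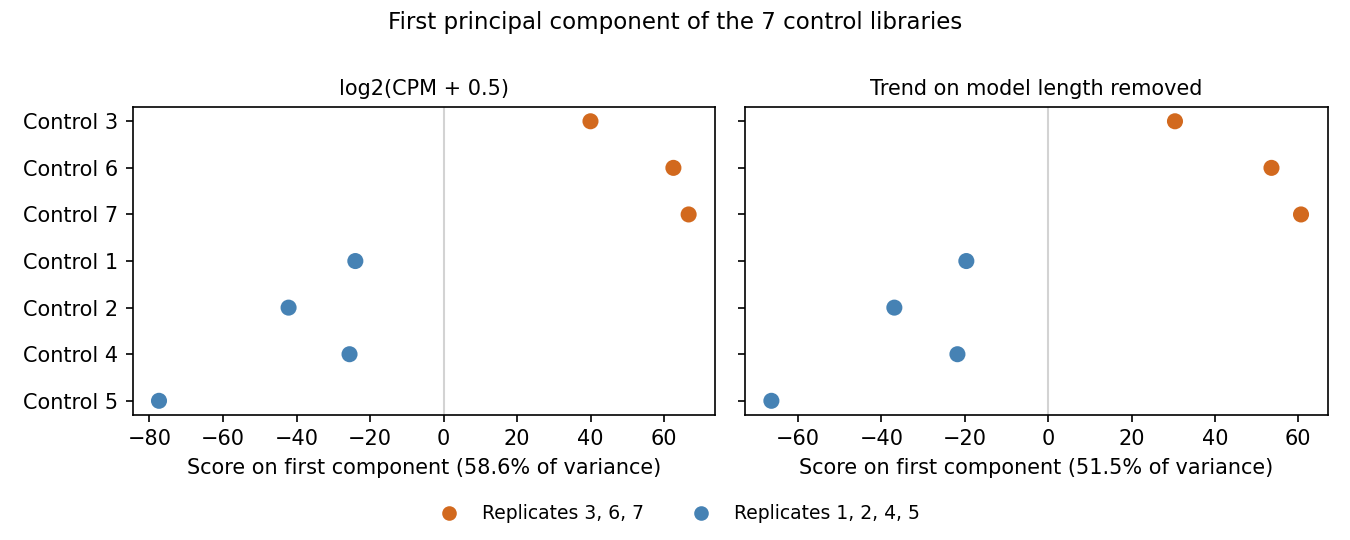
Scores of the 7 control libraries (rows) on the first principal component of the controls alone, from log2(CPM + 0.5) on the left and after removal of each library's smooth trend on model length on the right. Replicates 3, 6 and 7 lie above 0 and replicates 1, 2, 4 and 5 below 0 in both panels, with replicate 5 at -77.4 on the left and -66.4 on the right.

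Pairs of libraries describe the same levels that chose the sets, so closer pairs within the sets follow in part from that choice. The Spearman correlation over models averaged 0.979 ± 0.0018 within replicates 3, 6 and 7 (SD, 3 pairs), 0.983 ± 0.0045 within replicates 1, 2, 4 and 5 (SD, 6 pairs) and 0.958 ± 0.0145 between the sets (SD, 12 pairs). The same library enters several pairs, so the pairs are not independent of each other. The lowest correlation among controls, 0.931, was that of replicates 7 and 5. Replicates 3 and 1, of different sets, correlated at 0.977, and replicates 5 and 1, of the same set, also at 0.977. The closest pair of different sets was thus nearly as close by this measure as the least close pair of the same set.

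Counts of models make these distances concrete. Among models with at least 10 CPM in one library of a pair, replicates 7 and 5 differed at least 2-fold in 3326 models, or 20.0% of them. Replicates 3 and 1 differed at least 2-fold in 388 models, or 2.43%. Within replicates 3, 6 and 7 the pairs differed in 122 to 251 models, and within replicates 1, 2, 4 and 5 in 22 to 224. The 22 models were those of replicates 2 and 1, and the 224 those of replicates 5 and 1. In a check for a library deposited more than once, the lowest chi-square per degree of freedom was 3.72, between replicates 4 and 1, so all 7 controls were counted as separate samples.

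The span of a model over the controls was mostly under 2-fold. Between the lowest and the highest of the 7 libraries the median model spanned 1.79-fold, and 9358 models (25.3%) stayed within 1.5-fold. A span above 4-fold was found for 1201 models (3.24%). In these 1201 models replicate 5 was the lowest library 585 times and replicate 7 the highest 386 times, while replicates 1 and 4 were seldom at either end (32 and 37 times the highest, 39 and 51 times the lowest).

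The biological coefficient of variation, edgeR's estimate of the spread beyond counting noise relative to the mean, was 0.261 for the 7 controls taken as 1 group. With the sets as separate levels it was 0.158, and this lower value follows in part from how the sets were chosen. Taken alone, replicates 3, 6 and 7 gave 0.172 and replicates 1, 2, 4 and 5 gave 0.148. The 3 auxin-free libraries gave 0.272, close to that of the undivided controls. These values are common to all models. A further estimate follows a trend on abundance. Its median in the 9259 most abundant models was 0.127 for the controls with sets as levels and 0.231 for the undivided controls. In the 9259 least abundant models its medians were 0.326 and 0.404.

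The sets differed in how their reads were spread over short and long models. Models over 3000 bases took 10.4, 10.7 and 10.9% of reads in replicates 3, 6 and 7, against 6.41, 6.0, 6.62 and 5.04% in replicates 1, 2, 4 and 5. Models of at most 500 bases took 3.94, 3.50 and 3.62% in replicates 3, 6 and 7, against 5.03, 5.20, 4.94 and 5.74% in replicates 1, 2, 4 and 5. The sets overlapped in neither share. The mean model length weighted by reads was 1696, 1724 and 1731 bases in replicates 3, 6 and 7, and 1474, 1446, 1482 and 1375 bases in replicates 1, 2, 4 and 5.

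**Figure D2:**
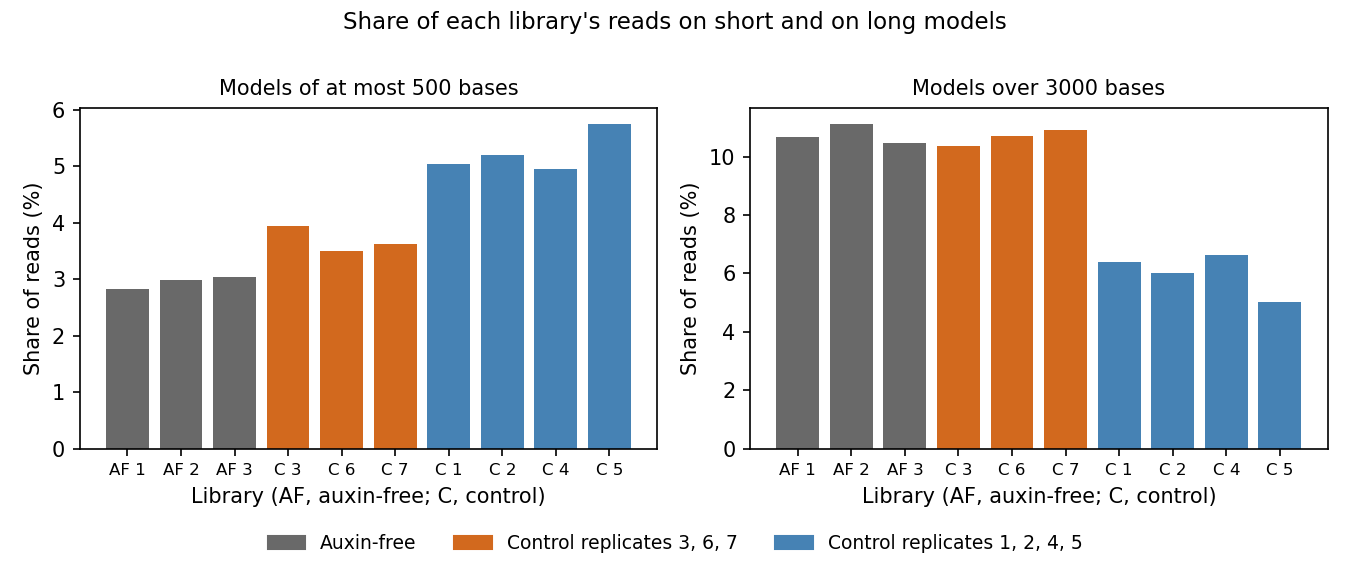
Share of each library's estimated reads (%, bars) on models of at most 500 bases (left) and over 3000 bases (right), for auxin-free libraries (grey), control replicates 3, 6 and 7 (orange) and control replicates 1, 2, 4 and 5 (blue). Replicates 3, 6 and 7 stand near the auxin-free libraries for long models, at 10.4 to 10.9%, and between the auxin-free libraries and the other controls for short ones, at 3.50 to 3.94%.

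The trend ran through the whole range of lengths. Relative to the mean of the 7 controls, the level gained 0.129, 0.173 and 0.153 log2 units per doubling of model length in replicates 3, 6 and 7. In replicates 1, 2, 4 and 5 the same slope was -0.072, -0.106, -0.072 and -0.206. The slopes put the libraries in nearly the order of the first principal component, with replicate 5 lowest. Because this quantity comes from the same levels that placed the libraries, it describes the division and does not support it independently.

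Over 8 bins of model length the median difference of replicates 3, 6 and 7 from replicates 1, 2, 4 and 5 increased at every step. It was -0.29 in the 4670 models of 122 to 537 bases (SD over models 0.579) and 0.51 in the 4630 models of 2340 to 13563 bases (SD 0.452). The median was nearest 0 in the bin of 1186 to 1440 bases, at 0.016. Length accounted for 23.2% of the variance of the set difference across models, with a slope of 0.265 per doubling. The slope was 0.125 in the 9259 least abundant models and 0.467 in the 9259 most abundant. Among the 3381 models with whole counts in every control, whose reads Salmon did not divide with similar models, the slope was 0.168. Of these models 2046 were among the least abundant 9259, and in the 250 that were among the most abundant 9259 their slope was 0.449.

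**Figure D3:**
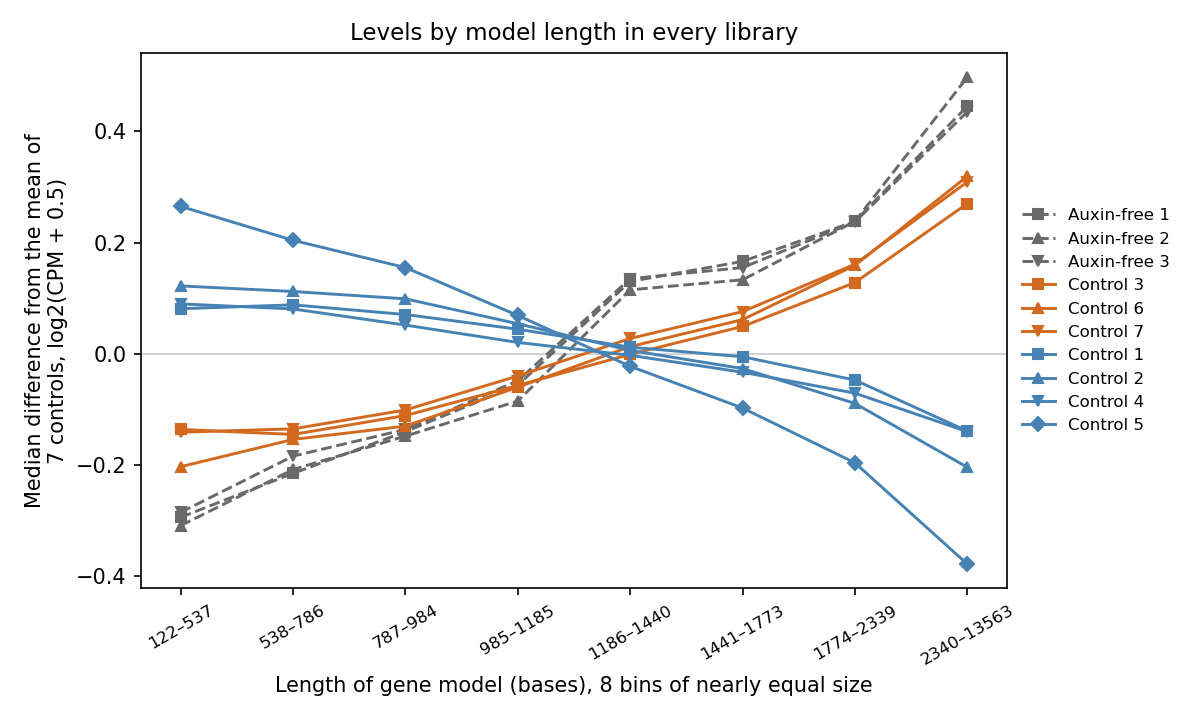
Median difference of each library from the mean of the 7 controls, on the log2(CPM + 0.5) scale, in 8 bins of gene model length (bases); dashed grey lines are auxin-free libraries, orange lines control replicates 3, 6 and 7, blue lines control replicates 1, 2, 4 and 5. The control lines cross near 1186 to 1440 bases, and in the longest bin replicates 3, 6 and 7 reach 0.27, 0.32 and 0.31, against -0.14, -0.20, -0.14 and -0.38 in replicates 1, 2, 4 and 5.

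The stability of single models followed length too. In the bins of 1186 to 1440 and of 1441 to 1773 bases 35.2% of models stayed within 1.5-fold over all 7 controls. In the shortest bin 10.9% did so and in the longest 17.6%.

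Some other library measures also differed between the sets without overlap, and others overlapped. The TMM factors that adjust library size were 1.045, 1.059 and 1.077 in replicates 3, 6 and 7. They were 0.978, 0.968, 1.030 and 0.936 in replicates 1, 2, 4 and 5, with no overlap. The 10 models with most reads in a library took 2.74, 2.61 and 2.64% of reads in replicates 3, 6 and 7, against 3.41, 3.47, 3.28 and 3.58% in replicates 1, 2, 4 and 5, with no overlap. The number of models with at least 1 CPM was 31135, 31118 and 31378 in replicates 3, 6 and 7 and 30846, 30982, 31186 and 30812 in the others, and here the sets overlapped. The median gap between a model's length and the effective length that Salmon estimated, taken over models longer than 1400 bases, was 386, 362 and 356 bases in replicates 3, 6 and 7. It was 401, 400.0, 380.4 and 372 bases in replicates 1, 2, 4 and 5. The sets overlapped in this gap as well. The serial numbers in the submitters' file names increase with the replicate number among the controls, and replicate 3 stands among replicates of the other set in that order. The serial numbers of the 3 auxin-free libraries come directly before those of control replicates 6 and 7 and apart from those of the other 5 controls. What these numbers record is not stated, and their part in the results was not tested. The part of RNA quality or library preparation in the division was not tested.

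At least a 2-fold difference of set means without overlap between the libraries was found for 1774 of the 37034 models (4.79%). Of these, 1164 were higher in replicates 3, 6 and 7 (3.14% of tested models) and 610 were lower (1.65%). Without the fold limit, 7080 models were higher without overlap (19.1%) and 6518 lower (17.6%), or 36.7% in either direction. Since the rule used this contrast, the counts show its size and no more. With upper-quartile scaling in place of TMM the 2 directions were nearer balance, at 993 higher and 802 lower. On log2(TPM + 1), which shifts the median set difference of all models to 0.28, 1979 were higher and 162 lower. With that shift removed the TPM values gave 709 higher and 452 lower. Among the 3381 models with whole counts in every control the balance was turned, with 64 higher and 84 lower.

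Large differences were few. At least 4-fold was reached by 113 models that were higher in replicates 3, 6 and 7 and by 41 that were lower, and at least 8-fold by 12 and 5. The rule has a sharp limit in a continuous distribution: the 10 models just inside it differed 2.000- to 2.003-fold, and the 10 just outside it 1.998- to 2.000-fold. Almost no model was present in one set alone. When presence was taken as 1 CPM or more throughout a set, and absence as no library with over 3 reads, 1 model was present in replicates 3, 6 and 7 only and 4 in replicates 1, 2, 4 and 5 only.

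The higher and the lower models had different lengths and similar abundance. The 1164 higher models had a median length of 2193 bases and a median level of 7.29 CPM in the controls. The 610 lower ones had a median length of 525.5 bases and 8.89 CPM, and all tested models had 1185 bases and 6.67 CPM. Of the higher models 46.4% came from the longest of the 8 bins, in which 11.7% of models were higher and 0.0864% lower. Of the lower models 50.8% came from the shortest bin, in which 6.64% of models were lower and 2.14% higher. The 1164 higher models took 4.01, 4.17 and 4.42% of reads in replicates 3, 6 and 7, against 1.83, 1.53, 1.82 and 1.04% in replicates 1, 2, 4 and 5. The 610 lower models took 2.33, 1.53 and 1.6%, against 3.61, 3.81, 3.43 and 4.33%.

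The 4 models with the widest gap between the nearest libraries of the sets show the pattern in single transcripts. Nitab4.5_0001498g0050.1, a model of 3591 bases, had 71.5, 70.3 and 69.3 CPM in replicates 3, 6 and 7, against 8.56, 3.05, 5.65 and 1.90 CPM in replicates 1, 2, 4 and 5. The higher set was almost level, whereas the lower set spread over more than 4-fold, and the means of the log2 levels differed 15.2-fold. Nitab4.5_0000714g0070.1, of 3210 bases, had 260, 227 and 266 CPM in replicates 3, 6 and 7, against 39.5, 17.2, 23.6 and 8.34 CPM in replicates 1, 2, 4 and 5. In both models replicate 5 was lowest and replicate 1 highest within the lower set.

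The 2 lower models were both very short. Nitab4.5_0008916g0070.1, of 324 bases, had 29.9, 7.63 and 5.62 CPM in replicates 3, 6 and 7, against 194, 239, 176 and 392 CPM in replicates 1, 2, 4 and 5. Nitab4.5_0004376g0170.1, of 270 bases, had 4.45, 1.01 and 0.725 CPM in replicates 3, 6 and 7, against 26.5, 32.5, 31.6 and 53.5 CPM in replicates 1, 2, 4 and 5. In both, replicate 5 was the highest control and replicate 3 lay nearest to the other set. None of the 4 models had whole counts in every control, so their levels include reads that Salmon divided among similar models.

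**Figure D4:**
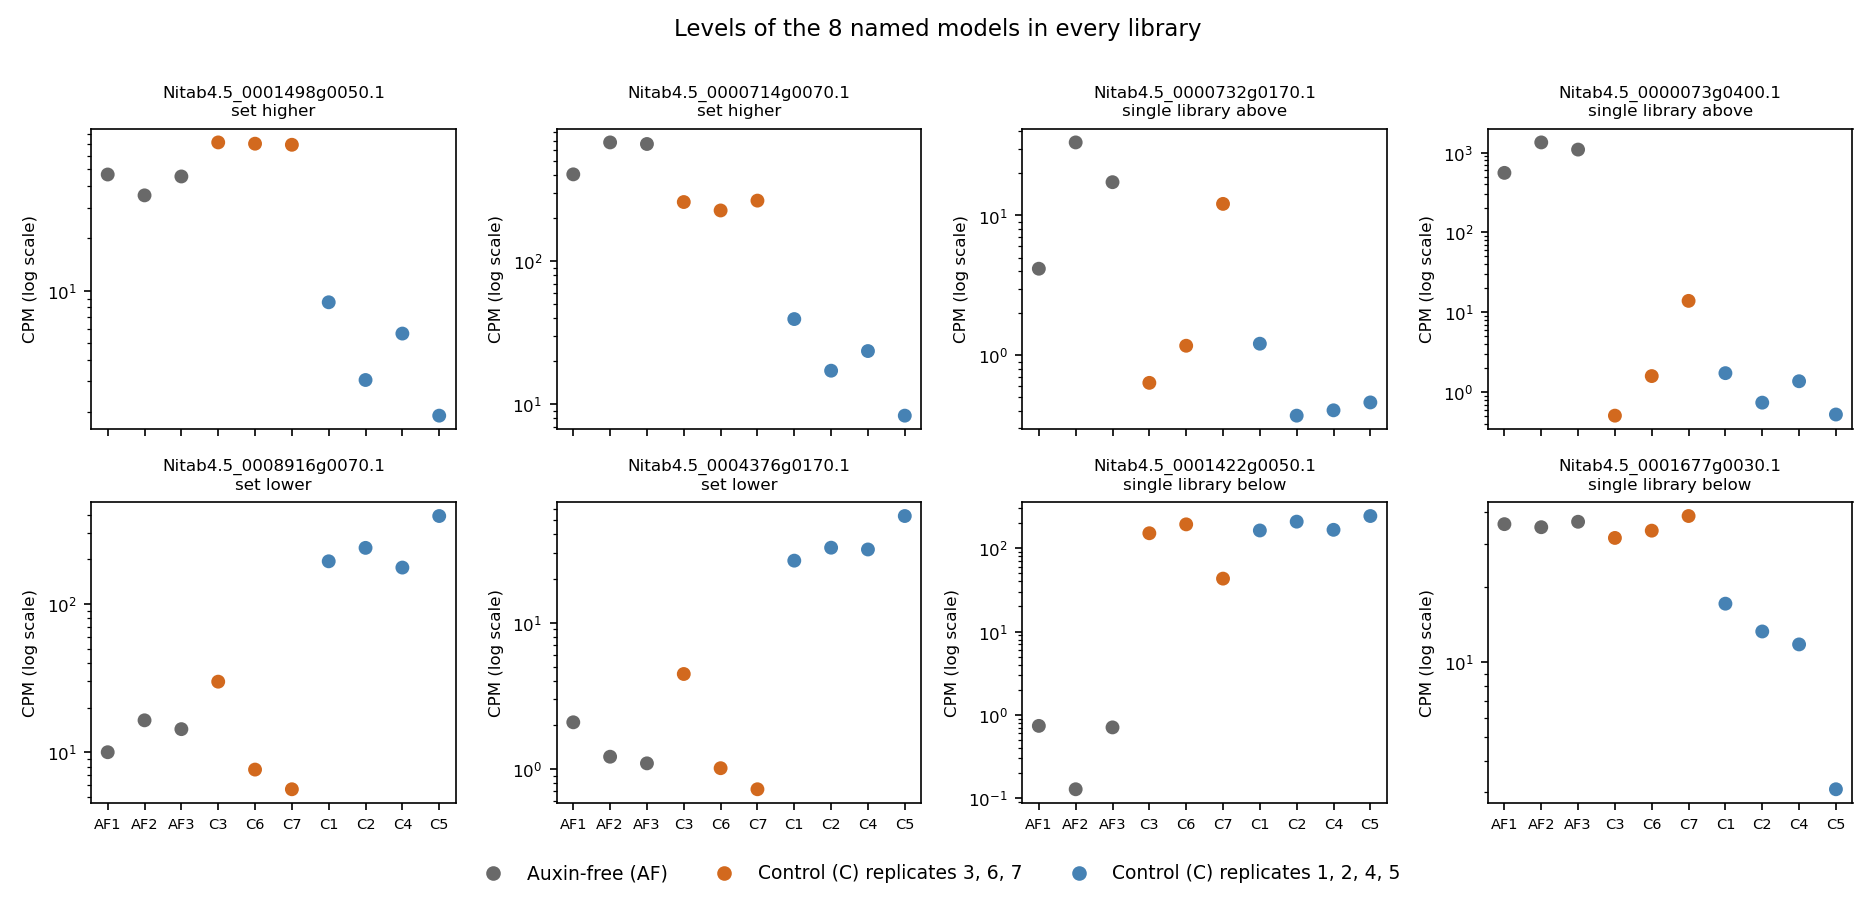
Levels (CPM, log axis) of the 8 named models in the auxin-free libraries (grey, AF), control replicates 3, 6 and 7 (orange) and control replicates 1, 2, 4 and 5 (blue). The 4 panels on the left hold the models with the widest gap between the sets, such as Nitab4.5_0001498g0050.1 at 69.3 to 71.5 CPM against 1.90 to 8.56 CPM; the 4 on the right hold those in which 1 control stands farthest from the others.

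The division remained after a smooth trend on model length was removed from each library. The sets were chosen from these same levels, and length accounted for 23.2% of the variance of the set difference across models. What remained thus follows in part from that choice. A single curve per library may not take out the whole trend, because the slope of the set difference on length changed with abundance. It was 0.125 in the 9259 least abundant models and 0.467 in the 9259 most abundant. With each library's smooth trend on length removed, the first principal component of the 7 controls held 51.5% of their variance. Replicates 3, 6 and 7 then scored 30.4, 53.6 and 60.7, and replicates 1, 2, 4 and 5 scored -19.6, -36.9, -21.8 and -66.4. The order of the libraries was the same as before. The set difference took up 45.6% of the variation, against 52.4% before removal.

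After the removal 736 models were at least 2-fold higher without overlap in replicates 3, 6 and 7 and 283 were lower. Of the 1164 higher models 566 were still higher, and of the 610 lower ones 215 were still lower. No model changed direction. The models that met the rule after the removal had median lengths of 879 bases (higher) and 819 bases (lower), both under the 1185 bases of all tested models. They took 1.01, 1.04 and 1.07% (higher) of reads in replicates 3, 6 and 7, against 0.373, 0.276, 0.340 and 0.154% in replicates 1, 2, 4 and 5. Nitab4.5_0001498g0050.1 kept a difference of 3.32 on the log2 scale, against 3.92 before, and Nitab4.5_0008916g0070.1 one of -4.08, against -4.37.

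Leaving out 1 library at a time left between 825 and 1432 higher models and between 445 and 1141 lower ones. Both lowest counts came without replicate 5. Without replicate 3 the lower models numbered 1141, against 610 with it. Of the original 1164 higher models between 801 and 1144 met the rule in each of these 7 runs, and of the 610 lower ones between 395 and 595.

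Single libraries seldom stood apart. A level at least 4-fold above the nearest of the other 6 controls, with at least 10 CPM, was found for 8 models (0.0216%), all in replicate 7. No model lay 4-fold below (0%). At 2-fold, replicate 7 stood above in 70 models and below in 4, replicate 5 above in 3 and below in 26, and the other 5 libraries had 0 to 2 models on either side. Nitab4.5_0000732g0170.1, of 2493 bases, had 12.1 CPM in replicate 7 and between 0.370 and 1.21 CPM in the other 6. Nitab4.5_0000073g0400.1, of 2645 bases, had 13.9 CPM in replicate 7 and between 0.508 and 1.73 CPM in the other 6.

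The widest gaps below the other controls were 1 in replicate 7 and 1 in replicate 5. Nitab4.5_0001422g0050.1, of 880 bases, had 43.1 CPM in replicate 7 and between 151 and 243 CPM in the other 6. Nitab4.5_0001677g0030.1, of 1299 bases, had 3.09 CPM in replicate 5 and between 11.8 and 38.7 CPM in the other 6. The other controls of this last model again fell into the sets, with 31.6, 33.8 and 38.7 CPM in replicates 3, 6 and 7, against 17.2, 13.3 and 11.8 CPM in replicates 1, 2 and 4.

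The auxin-free libraries were then used to ask whether these differences run in the direction of the cells without auxin. By length they lay on the side of replicates 3, 6 and 7. Their slopes were 0.227, 0.226 and 0.212 log2 units per doubling of length, above all 7 controls. Their share of reads on models of at most 500 bases was 2.82, 2.98 and 3.04%, below all 7 controls. On models over 3000 bases it was 10.7, 11.1 and 10.5%, within the range of replicates 3, 6 and 7 but for 1 library. Against the 7 controls together the slope gave an exact two-sided permutation p of 0.0333 and an adjusted p of 0.0556 over 4 such measures. The share on short models gave the same exact permutation p of 0.0333 (adjusted 0.0556), the read-weighted length 0.0417 (adjusted 0.0556) and the share on long models 0.100 (adjusted 0.100). None passed 0.05 after adjustment, with the 120 possible divisions of 10 libraries allowing 0.00833 at the lowest.

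How far the auxin-free libraries leaned to long models depended on which controls they were set against. Their difference had a slope of 0.0702 per doubling against replicates 3, 6 and 7 and of 0.336 against replicates 1, 2, 4 and 5, over all tested models. Within 4 classes of abundance the slopes ran from 0.200 to 0.266 against the first set and from 0.391 to 0.709 against the second. In the longest bin the median auxin-free difference was 0.14 against replicates 3, 6 and 7 and 0.68 against replicates 1, 2, 4 and 5. In the shortest bin it was -0.14 and -0.40. The auxin-free libraries also differed from all 7 controls in the median gap between length and effective length. It was 255, 275 and 276 bases in the auxin-free libraries and 356 to 401 bases in the controls. Lack of auxin and a smaller gap thus went together. The part of library preparation in these slopes was not tested.

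The 4 models named for the sets had these auxin-free levels. Nitab4.5_0001498g0050.1 had 46.7, 35.4 and 45.5 CPM in the auxin-free libraries, between the 2 sets of controls. Nitab4.5_0000714g0070.1 had 406, 679 and 662 CPM, above both sets. Nitab4.5_0008916g0070.1 had 9.99, 16.4 and 14.3 CPM and Nitab4.5_0004376g0170.1 had 2.08, 1.21 and 1.09 CPM, both within the range of replicates 3, 6 and 7. Of the models named for single libraries, Nitab4.5_0000073g0400.1 had 557, 1340 and 1090 CPM without auxin. Nitab4.5_0001422g0050.1 had 0.737, 0.128 and 0.707 CPM without auxin, so in both replicate 7 deviated to the auxin-free side. Nitab4.5_0000732g0170.1 had 4.16, 33.3 and 17.3 CPM, on both sides of the 12.1 CPM of replicate 7. Nitab4.5_0001677g0030.1 had 35.9, 34.9 and 36.7 CPM, a level like that of replicates 3, 6 and 7 and far from the 3.09 CPM of replicate 5.

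Over the 1164 models higher in replicates 3, 6 and 7, the auxin-free mean was beyond that set in 539 (46.3%), between the 2 set means in 547 and below replicates 1, 2, 4 and 5 in 78 (6.70%). Over the 610 lower models it was beyond replicates 3, 6 and 7 in 406 (66.6%), between the set means in 171 and above replicates 1, 2, 4 and 5 in 33 (5.41%). Over all tested models the auxin-free mean lay above both set means in 44.3%, between them in 13.8% and below both in 41.9%. As percent of reads, the 1164 higher models took 4.71, 5.03 and 4.61% in the auxin-free libraries and the 610 lower ones 1.07, 0.8 and 1.03%. These places share their controls with the choice of the models. Without replicate 3 the lower models with an auxin-free mean between the sets numbered 447 and those above replicates 1, 2, 4 and 5 numbered 88. Without replicate 5 the higher models with an auxin-free mean below replicates 1, 2, 4 and 5 numbered 45.

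Against all 7 controls together, edgeR's quasi-likelihood test at an adjusted p of 0.05 called 23434 models (63.3%), 12194 of them higher (32.9%) and 11240 lower (30.4%) without auxin. Upper-quartile scaling turned this balance, with 10540 higher and 13202 lower. Of the 1164 models higher in replicates 3, 6 and 7, 330 were called higher and 37 lower. Both were smaller shares than the 32.9% and 30.4% of all tested models. Of the 610 lower models 14 were called higher, a smaller share than among all, and 386 lower, a larger one. The same 7 controls chose these models and entered the test.

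A version with no shared sample gave the same direction. The set difference was taken from replicates 3 and 6 against 1 and 2, and the auxin-free libraries were set against replicates 4, 5 and 7. The first comparison named 948 higher models (2.56%) and 526 lower ones (1.42%). The auxin-free mean was above replicates 4, 5 and 7 in 806 of the 948 (85.0%), where it was above in 51.5% of all tested models. It was below in 450 of the 526 (85.6%), where it was below in 48.5% of all. The median auxin-free log2 fold change was 0.75 in the 948 models, -1.60 in the 526 and -0.017 in all tested models. With the trend on length removed, 597 of 753 models (79.3%) and 230 of 280 (82.1%) had that direction by the difference of means. Among all tested models 45.5% were then above and 54.5% below. The members of the sets were still chosen with all 10 libraries in view. Of the test controls, replicates 4 and 5 belong to replicates 1, 2, 4 and 5, and only replicate 7 to the other set. An auxin-free mean between the set means could therefore count as above in the higher models or below in the lower ones. The shares found follow in part from this choice of controls.

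**Figure D5:**
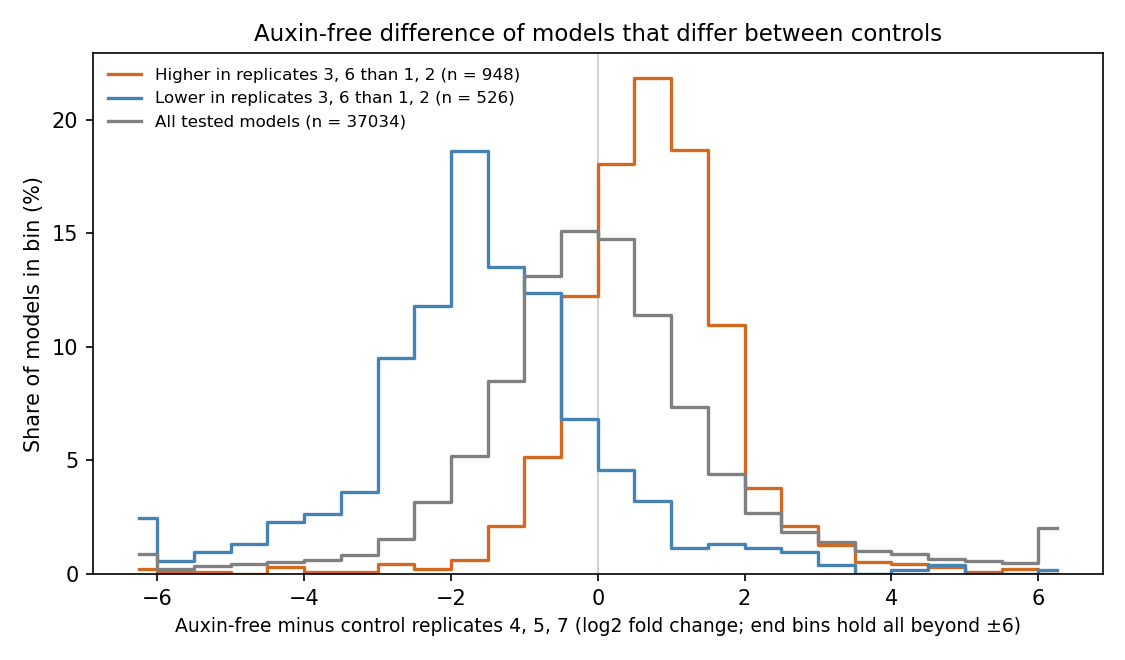
Distribution of the auxin-free difference (edgeR's log2 fold change against control replicates 4, 5 and 7) as share of models per bin (%), for models higher (orange, n = 948) and lower (blue, n = 526) in control replicates 3 and 6 than in 1 and 2, and for all 37034 tested models (grey). The orange line is centred on a median of 0.75 and the blue one on -1.60, while all models centre on -0.017.

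Fewer of these models passed a test. With edgeR's quasi-likelihood test of the auxin-free libraries against control replicates 4, 5 and 7, 9718 models were called higher (26.2%) and 9344 lower (25.2%) at an adjusted p of 0.05. Of the 948 higher models 212 (22.4%) were called higher and 22 (2.32%) lower. The share called higher was below the 26.2% of all models here, but above it in both other divisions of the controls. With the models taken from replicates 6 and 7 against 1 and 4 and the test made against 2, 3 and 5, it was 40.5%, against 29.4% of all models. With the models taken from 3 and 7 against 2 and 5 and the test made against 1, 4 and 6, it was 37.8%, against 29.4% of all models. In these divisions too, most test controls came from replicates 1, 2, 4 and 5. In the first division, without replicate 7, which is the only one of its 3 test controls from replicates 3, 6 and 7, 625 of the 948 were called higher and 11307 of all 37034. Without control replicate 4 the counts were 101 of the 948 and 7411 of all. They were 140 and 8558 without auxin-free replicate 2, and 141 and 8085 without auxin-free replicate 3. Of the 526 lower models 293 (55.7%) were called lower and 29 (5.51%) higher. Without control replicate 5 the lower models called lower numbered 187, with 8062 of all models called lower, and the higher models called lower numbered 41. The lower models called lower numbered 195 without control replicate 4, with 6842 of all, and also 195 without auxin-free replicate 3, with 7099 of all.

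The comparison of auxin-free with control cells changed in size with the controls used. In 1 fit of all 10 libraries with the control sets as separate levels, 11678 models were higher (31.5%) and 10943 lower (29.5%) in the auxin-free libraries than in replicates 3, 6 and 7. Against replicates 1, 2, 4 and 5 the counts were 13809 (37.3%) and 12041 (32.5%). Upper-quartile scaling reversed the balance of directions, with 10271 higher and 12659 lower against the first set and 11858 and 14098 against the second. Both comparisons share the auxin-free libraries, and the sets differ in size. The sets were also chosen from these same levels. Taking them as levels lowered the coefficient of variation of the controls from 0.261 to 0.158. The adjusted p-values against each set, here and below, may therefore be too small and the calls too many. The 19758 models called in the same direction against both were 87.3% of the calls against replicates 3, 6 and 7 and 76.4% of those against replicates 1, 2, 4 and 5.

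With TMM scaling the lean of a length class was the same against both sets, but its size differed. More models were lower than higher in the 4 shorter bins, and more higher than lower in the 4 longer ones. In the bin of 985 to 1185 bases the counts against replicates 3, 6 and 7 were nearly even, at 1419 higher and 1449 lower. Upper-quartile scaling, which reversed the balance over all models, was not applied to the bins. In the longest bin 1713 models were higher and 1247 lower without auxin than in replicates 3, 6 and 7, against 2788 and 697 relative to replicates 1, 2, 4 and 5. In the shortest bin 1020 were higher and 1362 lower relative to the first set, and 1050 and 2018 relative to the second. Only 154 models were called in opposite directions by the 2 comparisons. Of these, 128 were higher without auxin than in replicates 1, 2, 4 and 5 and lower than in replicates 3, 6 and 7. Their median length was 3208.5 bases, and 85 of them were among the 1164 higher models (3.14% of tested models). The other 26 went the opposite way, with a median length of 699 bases, and 14 of them were among the 610 lower models (1.65%). Opposite calls require an auxin-free level between the sets, and the same 7 controls chose the lists. These overlaps therefore follow in part from the definition.

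Single calls could turn on the same choice. Nitab4.5_0001498g0050.1 and Nitab4.5_0008916g0070.1 were named for their wide gaps between the sets. Differing results against the sets follow from that choice and do not show how common such calls are. For Nitab4.5_0001498g0050.1 the auxin-free level differed by 0.38 on the log2 scale from the 7 controls (edgeR adjusted p = 0.744), by -0.73 from replicates 3, 6 and 7 (edgeR adjusted p = 0.113) and by 3.13 from replicates 1, 2, 4 and 5 (edgeR adjusted p = 2.96e-05). For Nitab4.5_0008916g0070.1 the differences were -3.46 (edgeR adjusted p = 0.0222), -0.09 (edgeR adjusted p = 0.905) and -4.20 (edgeR adjusted p = 0.000302). Nitab4.5_0001422g0050.1, which had almost no reads without auxin, fell against the 7 controls and against either set, with differences of -8.30, -7.93 and -8.53 (edgeR adjusted p between 3.47e-07 and 1.02e-05).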

How the data were processed

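Per the submitters' processing notes, Trimmomatic and Salmon were used. The sources used here name no version, setting or index. Per the file headers, each deposited file holds estimated counts, TPM values, and the length and effective length (bases) of 69500 gene models. The authors left these estimated counts unnormalized. Salmon divides reads among similar models, of which tobacco, an allotetraploid, has many. Model lengths were multiples of 3 in 83.7% of models.

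Counts were rounded. Models were filtered with filterByExpr (minimum count 10) over the 10 libraries and scaled with TMM. Auxin-free contrasts used edgeR 4.0.16 in R 4.3.3 (robust quasi-likelihood F-tests, Benjamini-Hochberg adjustment, threshold 0.05), checked on simulated data. The simulated controls had the spread found within the sets and no division between them. The check thus does not cover the wider spread of the undivided controls. Alternatives used DESeq2 1.42.0 and limma 3.58.1. Smooth trends on log2 length were loess fits (span 0.3) to each library's difference from the control mean. Single values were compared with exact permutation tests. Whole counts had a tolerance of 0.001.

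Named models were the 2 higher and the 2 lower with the widest gap between nearest libraries of the sets, and between 1 control and the other 6, with at least 10 CPM on the higher side (as a set mean, or in every library on that side). The sets, lists and rules were chosen with earlier results of these data known.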

Additional observations from a re-analysis of the deposited data

Results flagged for a closer look

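Among 16 library measures and the CPM of the 8 named models, 2 values lay far enough from the other controls to exceed Dixon's 95% critical value for 7 samples. Nitab4.5_0000732g0170.1 had 12.1 CPM in control replicate 7, with a gap to the nearest control of 0.928 of the whole range. Nitab4.5_0000073g0400.1 had 13.9 CPM in control replicate 7, with a gap of 0.909 of the range. Both were named because 1 library stood apart, so the flags follow from the choice, and chance flags about 5% of such sets. None of the 16 library measures was flagged.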

How the results depend on the processing

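The counts of models at least 2-fold apart between the control sets (1164 higher and 610 lower in replicates 3, 6 and 7) depended on the low end of the scale and on length. They were 608 and 285 with log2(CPM + 2), 1979 and 162 with log2(TPM + 1), 709 higher with centred TPM, 242 lower with a linear length trend removed, and 736 and 283 with a smooth one. A limit of 1.5-fold gave 3892 and 3073, and a limit of 4-fold 113 and 41, by construction. The 3381 whole-count models gave 64 and 84. Fewer models were counted, but the balance turned as well: 43.2% of these calls were higher, against 65.6% over all tested models. The whole-count models were also shorter (median 771 against 1185 bases) and scarcer (median 1.15 against 6.67 CPM). The cause of the turned balance was not tested. Leaving out each control gave 825 to 1432 and 445 to 1141. DESeq2 size factors gave 1038 and 713.

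For the auxin-free place, log2(TPM + 1) gave 1020 higher models between the sets, 241 beyond replicates 1, 2, 4 and 5, and 94, 59 and 9 lower models beyond replicates 3, 6 and 7, between the sets and beyond the others. The smooth removal gave 277 higher models beyond replicates 3, 6 and 7, and 181, 81 and 21 lower ones in the 3 places. Leaving out each library gave 45 to 113 higher models beyond replicates 1, 2, 4 and 5, 130 to 447 lower models between the sets and 30 to 88 beyond replicates 1, 2, 4 and 5. The cause was not tested.

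With the list from replicates 6 and 7 against 1 and 4 and the test against replicates 2, 3 and 5, 375 of 925 higher models were called higher (40.5%, against 29.4% of all models) and 613 of 893 lower ones lower (68.6%, against 26.3%). With the list from 3 and 7 against 2 and 5 and the test against 1, 4 and 6, 804 of 2127 higher models were called higher (37.8%, against 29.4% of all models) and 163 lower, and of 1000 lower models 47 were called higher and 564 lower (56.4%, against 27.4%). The lists differ in length, and in every division most test controls came from replicates 1, 2, 4 and 5. Leaving out each library of the first test gave 101 (without control replicate 4) to 625 (without control replicate 7) higher models called higher, 16 to 41 called lower, and 187 (without control replicate 5) to 373 lower models called lower. With the smooth trend removed, 230 models of the lower list lay below the controls, against 450, because the list was shorter.

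Leaving out each control gave a coefficient of variation of 0.240 (without replicate 5) to 0.278 for the undivided controls and 0.143 to 0.168 within the sets. Single libraries stood apart in 75 (above) and 32 (below) models at 2-fold, and in 17 and 24 with log2(TPM + 1). The comparison of auxin-free with all controls called 12194 models higher and 11240 lower; with the replicate number as a block it called 11100 and 9878, and with upper-quartile scaling 10540 and 13202. The numbers pair no samples in the labels, the deviations of same-numbered samples correlated at 0.0872, -0.115 and -0.0302, and 1 of 6 samples correlated best with its own number. For the contrast of the control sets no paired analysis was possible because the sets hold different replicate numbers. Depth limits the scarcest models, in which 1 read is a large step on the log scale.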

Other observations

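The 70 models in which replicate 7 stood at least 2-fold above the other controls had a median length of 1375.5 bases. In 43 of them the auxin-free mean was above replicate 7 as well, and with the length trend removed in 36 of 64. Among all tested models the auxin-free mean lay above the means of both control sets in 44.3%, a related but not identical measure. Of the 26 models in which replicate 5 stood below, with a median length of 1929 bases, the auxin-free mean was below replicate 5 in 0. They were chosen because replicate 5 lay below every other control, which favours a low count. Among all tested models the auxin-free mean lay below the means of both control sets in 41.9%, again a related but not identical measure.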
